A study of Arabidopsis thaliana with 12 samples.

Results

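The immediate response of the Arabidopsis thaliana root to loss of its tip was read from the stump tissue 30 min after excision, set against the tips of uncut roots. The comparison used 6 of the 12 libraries of the study, chosen by their labels: 1 mock and 1 CNQX library of stumps at 30 min, and 2 mock and 2 CNQX libraries of uncut roots. Of the 32833 loci in the count table, 14993 passed a filter on low counts and were tested. Seedlings of the Col-0 accession were 7 days old. CNQX is an antagonist of animal ionotropic glutamate receptors, and it was given at 50 µM; mock plates lacked it. Cut seedlings spent 1 h on CNQX or mock plates, lost about 130 µm of root tip on them, and were kept on new plates for 30 min, and then the 100 µm or so of root next above the cut was taken. Uncut seedlings stayed on CNQX or mock plates for 14 h, and about 100 µm of the root tip was taken. The 2 groups therefore differ in excision, in position along the root, and in the time spent on the plates, and these cannot be told apart here. Position matters for every gene with a gradient along the root, and in bulk tissue fewer cells of a type cannot be told apart from less RNA per cell.

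Wounding of a plant releases calcium waves and reactive oxygen within the tissue and starts the synthesis of jasmonate from plastid lipids. The active hormone, jasmonoyl-isoleucine, makes the receptor COI1 mark JAZ repressors for destruction, which frees transcription factors such as MYC2. Genes of jasmonate synthesis, of JAZ repressors and of hormone breakdown are themselves among the targets, so that the response both amplifies and restrains itself. In roots that lost their tip, cells of the stump later rebuild a stem cell niche and a root cap.

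Total counts of the 6 libraries ran from 1575446 to 3302325, so that 3 counts, used here as a floor, stood for 0.908 to 1.90 CPM (counts scaled to a common library size). Mitochondrial loci held 8.13% to 16.9% of counts, ribosomal RNA loci 5.32% to 8.80%, and 53.3% to 61.8% of reads had more than 1 alignment and were not counted. The tip markers followed the labels. SMB, the root cap identity factor, stood at 3.83 to 17.3 CPM in the uncut libraries and had 0 counts in both stump libraries, at least 11.6-fold lower (0 counts against 77, with the floor over the group). The summed level of 8 root cap markers was 56.3 to 190 CPM in uncut tips and 11 to 15.9 CPM in stumps, and that of 15 stem cell niche markers was 259 to 403 CPM against 111 to 167 CPM. Of 9 markers of the differentiated endodermis only GSO1 (SGN3) passed the filter, at 6.5 to 12.5 CPM in uncut tips and 13.9 and 12.4 CPM in stumps, and CASP2 and CASP5 had 0 counts in all 6 libraries. The 8 photosynthetic markers summed to 8.45 to 14.3 CPM in uncut tips and 11.4 to 14.2 CPM in stumps. Labels do not say whether replicates came from separate cultures, so each p-value here reflects the spread among these 6 libraries alone, which may be technical.

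At 30 min, 649 genes had risen (4.33% of those tested) and 559 had fallen (3.73%), by edgeR's quasi-likelihood F test with drug as a covariate and an adjusted p under 0.05 (Benjamini-Hochberg over all genes tested; 8.06% called in either direction). For each list below, 4.33% up and 3.73% down are the shares of all genes to set beside its counts. Among called genes, 357 of the risen and 316 of the fallen moved by more than 4-fold. The test favours large changes: in counts simulated from these libraries, with 200 changed genes, it called 2% of 2-fold and 54% of 4-fold changes. With fewer changed genes than were called here the adjusted threshold is stricter, so these shares may be lower than those of the data. The median log2 fold change was 2.12 among risen genes, -2.12 among fallen genes and -0.02 over all genes tested. Both stump libraries lay above all 4 uncut libraries for 647 of the 649 risen genes and below them for 559 of the 559 fallen genes. Over all genes tested, 18.9% lay above and 18.6% below. A lack of overlap described below for a called gene comes with nearly every call and is no separate support. Risen genes held 2.1% to 2.35% of the counts in uncut libraries and 7.02% and 7.81% in the mock and CNQX stump libraries, while fallen genes held 4.09% to 4.87% and then 1.20% and 1.51%. The counts of calls rest on having both stump libraries. Without the mock one, 54 genes were called (49 up, 5 down), and without the CNQX one 43 were called (36 up, 7 down). Of 185 called genes that were list members or are named below, 22 were called in both of these reduced fits and 140 in neither; the 22 were LOX3, LOX4, AOS, OPR3, OPCL1, JAZ1, TIFY10B, JAZ10, TAT3, FAMT, AT3G44870, CNGC19, MPK3, NPR3, GGP1, GSTU5, GSTU6, GSTU26, MSRB8, AT2G36650, AT5G02230 and AT5G19110, all of them risen genes. Of the 185, 130 were called in each of the other settings that could test them; where 1 uncut library or another tool ended the call of a gene named below, the adjusted p stands beside it. A fit of all 12 libraries called 544 up and 201 down, a share of 73.0% up against 53.7% in the fit of 6; among the genes named below it did not call HIK, CYCB2;4, SYP111, CDKB1;2, CDT1B, AT4G14330, AT1G07400, BBM, MYB66, LAX2, FIB1, CRF2, CRF4, HSFA2, HSP101, BOA, MYC2, ILL6, AT5G05600, MYBR1, SCL5 and TRP1. In every alternative listed below, each called gene that could be tested again kept its sign.

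**Figure D1:**
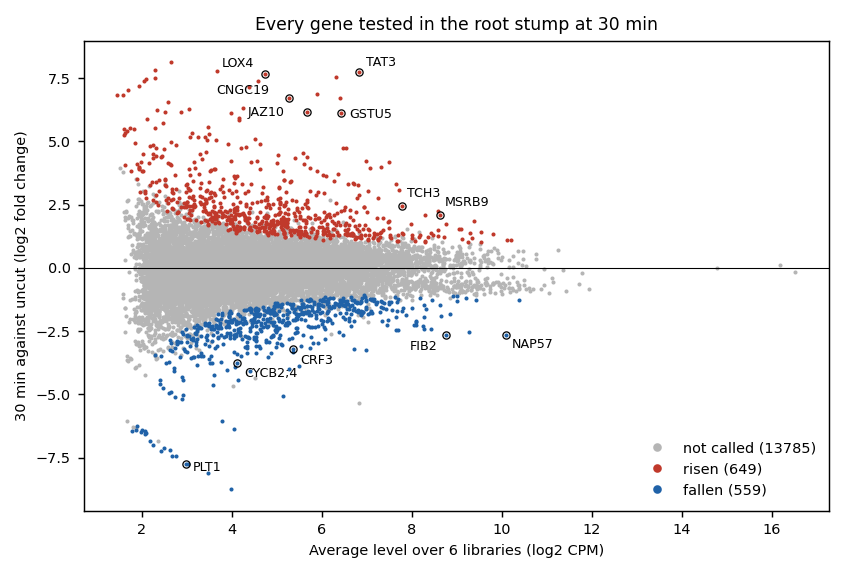
Each point is 1 of the 14993 genes tested, with its average level over 6 libraries (log2 CPM) on the x axis and its fitted log2 fold change of stumps at 30 min against uncut tips on the y axis; 649 risen genes are red, 559 fallen genes blue and genes not called grey. Jasmonate gene LOX4 and the calcium channel gene CNGC19 lie near the top, nucleolar genes FIB2 and NAP57 are among the fallen genes at high levels, and the streak at the lower left holds genes with 0 counts in both stump libraries, whose fitted value depends on the fit and is no bound.

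Short motifs were counted in the 250 bases before the start of each gene (RefSeq annotation of TAIR10.1), which were read for 14880 of the tested genes, on both strands. The rapid stress response element CGCGTT, a sequence bound by calmodulin-binding CAMTA factors, occurred upstream of 37 of 649 risen genes (5.70%, 95% Wilson interval 4.16% to 7.76%), of 11 of 559 fallen genes (1.97%, 1.1% to 3.49%) and of 419 of all 14880 (2.82%, 2.56% to 3.09%). The W-box core TTGAC, the binding sequence of WRKY factors, stood upstream of 53.0% of risen, 41.5% of fallen and 44.7% of all genes. For AACGG, the core of the mitosis-specific activator motif bound by MYB3R factors, the order was the other way, with 19.7% of risen, 30.6% of fallen and 22.9% of all genes. The G-box CACGTG, where MYC2 can bind, was at 8.47%, 7.16% and 7.39%, the drought response core CCGAC at 16.0%, 15.0% and 13.3%, and the GCC-box GCCGCC at 1.54%, 1.61% and 2.03%, and for each of these and for AACGG the intervals of risen and all genes overlapped. These shares are descriptions with no test, and a match is not a site of binding.

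Among genes that pass the rule for named genes, the 3 highest risers with CGCGTT are shown because that motif had the highest share among risen genes relative to all genes; PLE, a fallen gene of cell division with 2 matches, is shown for AACGG. Capitals mark the motif or its reverse complement. LOX4 (chr1:27308263-27308512, plus strand) has it 179 to 174 bases before the gene start, CNGC19 (chr3:6044830-6044859, plus strand) 160 to 155 bases before it, and AT5G19110 (chr5:6413312-6413561, minus strand) 50 to 45 bases before it. For CNGC19 only a window of 30 bases is printed, since its upstream region overlaps another gene. PLE is at chr5:20964538-20964787 on the minus strand.
LOX4: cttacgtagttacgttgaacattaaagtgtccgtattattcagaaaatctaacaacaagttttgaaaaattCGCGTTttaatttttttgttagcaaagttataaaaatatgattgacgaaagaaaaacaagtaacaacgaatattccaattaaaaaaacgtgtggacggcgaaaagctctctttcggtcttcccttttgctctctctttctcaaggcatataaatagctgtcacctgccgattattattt
CNGC19: tctttttccataAACGCGgatctctttatt
AT5G19110: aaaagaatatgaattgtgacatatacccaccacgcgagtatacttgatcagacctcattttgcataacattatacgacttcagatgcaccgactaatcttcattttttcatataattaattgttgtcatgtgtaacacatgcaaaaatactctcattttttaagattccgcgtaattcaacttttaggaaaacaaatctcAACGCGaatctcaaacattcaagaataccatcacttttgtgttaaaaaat
PLE: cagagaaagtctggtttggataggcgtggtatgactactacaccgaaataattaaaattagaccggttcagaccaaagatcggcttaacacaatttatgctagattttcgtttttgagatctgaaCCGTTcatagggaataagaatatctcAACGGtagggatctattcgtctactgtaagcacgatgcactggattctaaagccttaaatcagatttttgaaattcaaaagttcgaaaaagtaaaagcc

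**Figure D2:**
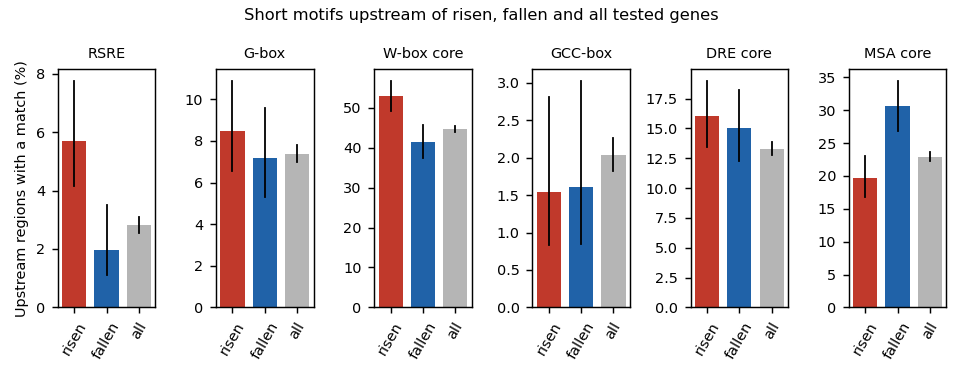
Bars give the percentage of upstream regions (250 bases) with at least 1 match to each of 6 motifs among risen (649), fallen (559) and all tested genes (14880 with a sequence); lines are 95% Wilson intervals, each panel has its own y axis from 0. CGCGTT (RSRE) and the W-box core are highest among risen genes, and the MSA core is highest among fallen genes.

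Genes for most steps of jasmonate synthesis rose. Of 15 members of the list, 12 passed the filter, 8 rose and 0 fell, with a median log2 fold change of 2.79 among those tested (5 called without the mock and 5 without the CNQX stump), against -0.02 over all genes and 4.33% of all genes called up. LOX4, a lipoxygenase that oxidises linolenic acid, had 0, 0, 0 and 1.44 CPM in the uncut libraries (mock 1, mock 2, CNQX 1 and CNQX 2, the order used throughout) and 67.9 and 86.7 CPM in the mock and CNQX stumps. Its counts rose from 3 to 334, a ratio of 246 with a 95% exact interval of 83.4 to 1200 (edgeR adjusted p = 9.63e-05). LOX3, its close relative, rose from 3 counts to 310, a ratio of 228 (77.4 to 1110; edgeR adjusted p = 7.50e-05). For both genes the uncut libraries were at or near 0 and the stumps far above.

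AOS, the allene oxide synthase that commits the product to jasmonate, had 5.89, 9.07, 18.8 and 10.6 CPM in uncut tips and 109 and 201 CPM in stumps, a log2 rise of 3.82 ± 0.35 (SE; 2 against 4 libraries; edgeR adjusted p = 0.000105). OPR3, the reductase that follows, had 21.8, 25.9, 37.0 and 30.7 CPM and then 268 and 284 CPM (3.28 ± 0.29; edgeR adjusted p = 9.63e-05). OPCL1, which activates the product for side chain shortening, had 17.1, 19.4, 16.2 and 12.5 CPM and then 218 and 205 CPM (3.70 ± 0.30; edgeR adjusted p = 7.28e-05). In these genes the groups did not overlap and the 2 stump libraries differed by less than 2 times. AOC3, an allene oxide cyclase, rose by 2.30 ± 0.38, AOC2 from 1 count to 54 (a ratio of 119, exact interval 20.5 to 4800), and ACX1, the peroxisomal oxidase of side chain shortening, by 1.48 ± 0.29. The later thiolase PKT3 was at 199 to 260 CPM in uncut tips and 222 and 257 CPM in stumps. JAR1, which joins jasmonate to isoleucine, was at 26.8 to 48.5 CPM and then 65.0 and 75.1 CPM, and did not pass the test. LOX2, the leaf lipoxygenase, had 0 counts in all 6 libraries.

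JAZ repressor genes rose as a family. Of 13 genes, 9 passed the filter, 8 rose and 0 fell, with a median log2 fold change of 4.73 among those tested (3 called without the mock and 3 without the CNQX stump). JAZ10, which encodes a repressor that outlasts the hormone pulse, had 1.47, 1.73, 3.25 and 1.92 CPM in uncut tips and 131 and 163 CPM in stumps, a log2 rise of 6.15 ± 0.38 (edgeR adjusted p = 1.32e-05). JAZ1 had 23.9, 17.7, 33.8 and 32.2 CPM and then 351 and 497 CPM (3.99 ± 0.29; edgeR adjusted p = 4.30e-05). TIFY10B (JAZ2) had 13.3, 9.93, 9.10 and 5.28 CPM and then 207 and 287 CPM (4.73 ± 0.37; edgeR adjusted p = 6.36e-05). The summed level of the 13 genes was 66.8 to 93.0 CPM in uncut tips and 898 to 1220 CPM in stumps, with no overlap. TIFY7 (JAZ9), JAZ5, JAZ3 and JAZ12 rose by 5.16, 4.80, 2.61 and 2.12 on the log2 scale, and AT3G22275, annotated as a jasmonate ZIM-domain protein, from 0 to 45 counts, at least 33.1-fold. DESeq2 did not call TIFY7 and AT3G22275 (adjusted p = 0.103 and 0.320). JAZ11 stood at 7.20 to 12.7 CPM in uncut tips and at 18.0 and 11.2 CPM in stumps, the only tested member not called.

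The receptor and most of the tested regulators of the pathway did not pass the test. COI1 was at 13.9 to 27.9 CPM in uncut tips and 19.2 and 24.4 CPM in stumps, and the adaptor NINJA at 64.3 to 102 CPM and then 81.3 and 82.3 CPM. MYC2 had 92.2, 102, 89.7 and 107 CPM and then 166 and 281 CPM (log2 rise 1.16 ± 0.30; edgeR adjusted p = 0.0353), with adjusted p between 0.0618 and 0.0792 when the mock uncut 1, CNQX uncut 1 or CNQX uncut 2 library was left out. AIB (JAM1), a bHLH factor that competes with MYC2, rose by 3.33 ± 0.45, from 2.40 to 7.07 CPM to 40.7 and 63.5 CPM. Of 18 signalling and output genes 11 passed the filter, 4 rose and 0 fell, with a median log2 fold change of 0.80 among those tested (3 called without the mock stump, 2 without the CNQX one). TAT3, a tyrosine aminotransferase long used as a jasmonate marker, had 0.295, 0, 1.3 and 6.24 CPM and then 311 and 360 CPM, a log2 rise of 7.74 ± 0.66 (edgeR adjusted p = 7.91e-05). FAMT, a farnesoic acid methyltransferase, had 0, 0, 0 and 6.24 CPM and then 188 and 279 CPM (7.53 ± 0.79; edgeR adjusted p = 0.000310). The neighbouring methyltransferase gene AT3G44870 gave 0.884 to 5.28 CPM and then 184 and 310 CPM; reads that fit both copies were not counted, so the split between the pair is uncertain. The storage protein genes VSP1 and VSP2, leaf outputs of the hormone, had 0 counts in all 6 libraries.

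Some genes that remove the hormone were called up, against 4.33% of all genes. Of 11 members, 7 passed the filter and 3 rose: IAR3, an amidohydrolase that splits jasmonoyl-isoleucine, by 2.09 ± 0.30 (27.9 to 39.9 CPM in uncut tips, 134 and 146 CPM in stumps; edgeR adjusted p = 0.00236), its relative ILL6 by 3.29 ± 0.88, and the oxygenase gene AT5G05600 by 2.6 ± 0.69. None of these 3 genes is among those listed above as called in both reduced fits. The median log2 fold change of the members tested in each fit was 2.19 with both stumps, 2.32 without the mock stump and 2.63 without the CNQX stump. The call of ILL6 was lost without the mock uncut 1 or 2 library (edgeR adjusted p = 0.0536 and 0.0853), and that of AT5G05600 with DESeq2 (adjusted p = 0.188). The hydroxylase gene CYP94B3 was at 0, 0, 0 and 6.72 CPM and then 5.81 and 10.8 CPM, so that the mock stump lay below 1 of the uncut libraries. CYP94B1 had 0 to 4.80 CPM and then 9.29 and 14.8 CPM and did not pass the test (edgeR adjusted p = 0.142).

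**Figure D3:**
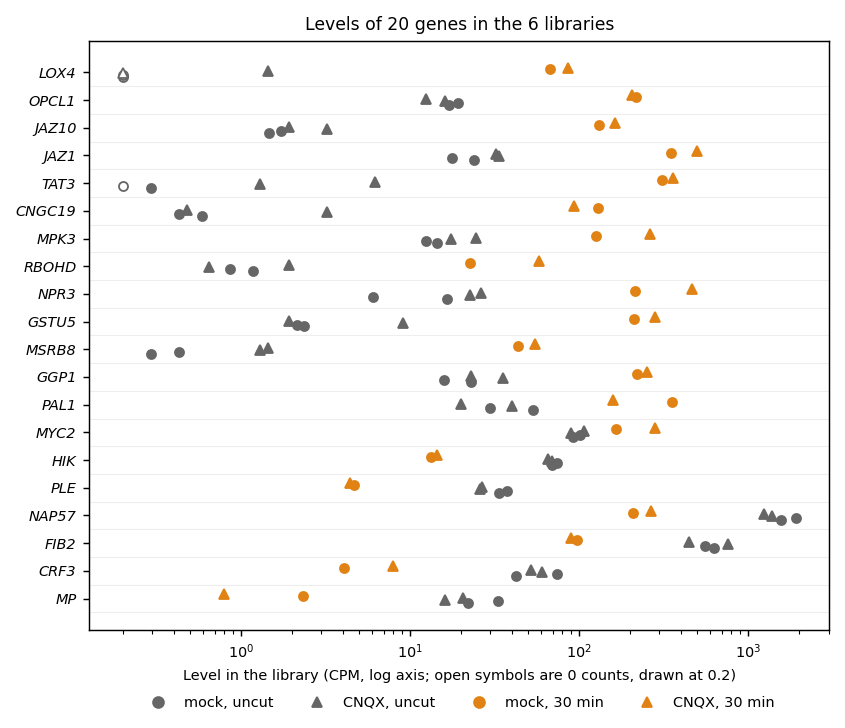
Level of 20 genes in each of the 6 libraries (CPM, log axis); grey symbols are uncut tips, orange symbols stumps at 30 min, circles mock and triangles CNQX, and open symbols mark 0 counts. Stumps lie to the right of the uncut libraries for the first 14 genes, from LOX4 to MYC2, and to the left for HIK, PLE, NAP57, FIB2, CRF3 and MP.

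Calcium signalling genes rose in number. Of 26 calcium sensor and touch genes, 22 passed the filter, 10 rose and 0 fell, with a median log2 fold change of 1.40 among those tested (4 called without the mock stump, 0 without the CNQX one). CML38, a calmodulin-like protein, had 1.18, 0, 0.650 and 1.44 CPM in uncut tips and 18.0 and 48.7 CPM in stumps (log2 rise 5.04 ± 0.62; edgeR adjusted p = 0.000832), and the neighbouring EF-hand gene AT1G76640 had 4.12, 0.864, 3.90 and 13.4 CPM and then 71.4 and 188 CPM (4.54 ± 0.49). CPK28, a calcium-dependent kinase that restrains immune signalling, had 25.9, 33.7, 27.9 and 31.7 CPM and then 144 and 214 CPM (2.56 ± 0.31; edgeR adjusted p = 0.000631). In all of these the stumps lay above every uncut library, and the CNQX stump above the mock stump. TCH3, a touch-induced calmodulin-like gene, rose by 2.43 ± 0.54 from 29.5, 178, 45.5 and 108 CPM, where the uncut libraries numbered 2 were the higher ones, to 436 and 522 CPM; DESeq2 gave it an adjusted p of 0.0683. TCH4, the touch-induced xyloglucan endotransglucosylase, rose by 4.46 ± 0.44.

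Channels, pumps and annexins were looked at as a group after their values had been seen. Of 30 tested genes with such words in their product name, 8 rose (against 4.33% of all genes) and 0 fell. CNGC19, a calcium channel of the plasma membrane known from wounded leaves, was the highest of them, with 0.589, 0.432, 3.25 and 0.480 CPM in uncut tips and 130 and 93.5 CPM in stumps (log2 rise 6.73 ± 0.57; edgeR adjusted p = 7.91e-05). ACA1, a calcium pump, had 44.2, 47.9, 39.6 and 26.9 CPM and then 194 and 185 CPM (2.28 ± 0.30; edgeR adjusted p = 0.00126). The stumps again lay above all uncut libraries. ANNAT4 and ANNAT3, annexins that bind membranes in the presence of calcium, rose by 3.04 and 2.94, and the exchanger gene AT5G17850 by 3.87. Other cyclic nucleotide gated channels were not called, with CNGC12 at -1.37 and CNGC17 at 1.01 on the log2 scale as the extremes.

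Some kinase, oxidase and receptor genes of early immunity rose. MPK3, a MAP kinase activated within minutes of wounding, had 14.4, 12.5, 17.5 and 24.5 CPM in uncut tips and 127 and 265 CPM in stumps (log2 rise 3.44 ± 0.31; edgeR adjusted p = 9.83e-05). Only 1 other of the 11 tested MAP kinase cascade genes rose, MAPKKK14, by 2.72 ± 0.59, against 4.33% of all genes called up. Of 18 early immunity genes, 12 passed the filter, 7 rose and 0 fell, with a median of 1.97 (2 called without the mock stump, 0 without the CNQX one). RBOHD, the NADPH oxidase that makes the apoplastic oxidative burst, had 1.18, 0.864, 0.650 and 1.92 CPM and then 22.6 and 57.9 CPM (4.88 ± 0.50; edgeR adjusted p = 0.000301). In both RBOHD and MPK3 the CNQX stump was more than 2 times the mock stump, a difference with no replicate behind it. The oxidase gene RBOH F rose by 2.58 ± 0.46. PEPR2 and PEPR1, receptors of the Pep danger peptides, rose by 3.63 ± 0.43 and 2.11 ± 0.39, and the precursor gene PROPEP1 from 3 to 53 counts, a ratio of 39.0 (exact interval 12.6 to 195).

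Peptide precursors outside the lists, looked at after their values were seen, included PSK2, which encodes the growth peptide phytosulfokine. It had 0, 0, 0 and 2.88 CPM in uncut tips and 42.4 and 63.1 CPM in stumps (log2 rise 6.31 ± 0.76; edgeR adjusted p = 0.000693, and 0.0505 by DESeq2). PSK5 rose from 1 to 30 counts (ratio 66.3, exact interval 11 to 2700), PROPEP4 rose by 3.29 ± 0.39, and PSK1 was not called, at 0.57.

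Some stress transcription factor genes of each listed family rose, and 1 WRKY gene fell. Of 14 tested WRKY genes 4 rose and 1 fell (2 and 0 risen without the mock or the CNQX stump). WRKY40 had 3.24, 8.64, 5.20 and 16.8 CPM in uncut tips and 77.2 and 203 CPM in stumps (log2 rise 3.96 ± 0.46; edgeR adjusted p = 0.000509), WRKY18 rose by 3.90 ± 0.45, and WRKY46 and WRKY48 rose from 2 to 96 counts (ratio 106, exact interval 28.6 to 888) and from 1 to 64 counts (ratio 141, exact interval 24.5 to 5670). WRKY53, linked to leaf senescence, fell by 2.29 ± 0.46, from 24.7, 22.5, 37.7 and 30.3 CPM to 6.39 and 5.19 CPM. WRKY genes that rose and the one that fell had no overlap between groups, as was the case for nearly all called genes. Of 8 tested ERF genes 4 rose, against 4.33% of all genes: RAP2.6 by 6.13 ± 0.59 (0 to 1.44 CPM, then 31.4 and 55.9 CPM; edgeR adjusted p = 0.000166), ERF13 by 5.07 ± 0.59, ERF4 by 2.38 ± 0.39 and ERF6 by 2.08 ± 0.42. The median log2 fold change of the ERF genes tested in each fit was 2.23 with both stumps, 2.54 without the mock stump and 1.63 without the CNQX stump. The zinc finger gene STZ rose by 2.52 ± 0.65 and the MYB gene MYBR1 by 1.69 ± 0.46, 2 of 7 tested in their list. STZ was not called without the mock or CNQX uncut 2 library (edgeR adjusted p = 0.0665 and 0.0539), nor MYBR1 without CNQX uncut 1 (0.0549). Of 17 factors linked to regeneration after wounding, 8 passed the filter. HSF4 (HSFB1) rose by 2.67 ± 0.59 and SCL5, a GRAS factor, by 1.49 ± 0.38. AT1G36060, an AP2-type factor of that list, fell by 2.45 ± 0.56, from 128, 293, 394 and 279 CPM to 74.9 and 25.6 CPM. Without the mock uncut 2 library AT1G36060 had an adjusted p of 0.0548, and SCL5 had 0.0507 to 0.0698 without the mock uncut 1 or either CNQX uncut library. RAP2.4 (WIND1) was at 18.7 to 42.9 CPM and then 37.2 and 28.8 CPM.

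Of 12 genes listed together as RNA turnover, ubiquitin ligase and other early stress genes, 9 passed the filter, 5 rose (against 4.33% of all genes) and 0 fell, and 0 were called without either one of the stumps. Among the 5, CAF1a, a deadenylase that shortens RNA tails, rose by 4.71 ± 0.84, SZF1, a zinc finger protein of salt stress, by 2.35 ± 0.34, HSPRO2, related to a nematode resistance gene of sugar beet, by 2.74 ± 0.34, SYP121, a syntaxin of secretion, by 1.84 ± 0.37, and the ubiquitin ligase gene PUB22 by 1.62 ± 0.40. PUB22 was not called without the mock uncut 1 or CNQX uncut 2 library (edgeR adjusted p = 0.0708 and 0.0505).

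Of 16 salicylic acid defence genes 8 passed the filter, 3 rose (against 4.33% of all genes) and 0 fell (2 called without the mock stump, 1 without the CNQX one). NPR3, a salicylic acid receptor that represses defence genes, had 16.5, 6.05, 22.7 and 26.4 CPM in uncut tips and 216 and 466 CPM in stumps (log2 rise 4.23 ± 0.36; edgeR adjusted p = 7.91e-05). PAD4, a lipase-like regulator, had 11.5, 6.91, 6.5 and 7.20 CPM and then 87.1 and 89.9 CPM (3.45 ± 0.36; edgeR adjusted p = 0.000313), and EDS5, the transporter of the hormone's precursor, rose by 2.04 ± 0.47. For 6 of the 8 tested genes both stumps lay above every uncut library, against 18.9% of all genes. PR1, PR5, BGL2, PBS3 and ALD1 had 0 counts in all 6 libraries.

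Some indole glucosinolate genes rose while MYB34, a regulator of the pathway, fell. Of 24 genes from tryptophan to camalexin, 18 passed the filter, 7 rose and 1 fell; without either one of the stumps 1 was called. GGP1, a glutathione-cleaving enzyme of the pathway, had 23.0, 16.0, 35.7 and 23.0 CPM in uncut tips and 222 and 252 CPM in stumps (log2 rise 3.31 ± 0.32; edgeR adjusted p = 0.000166). CYP79B2, which turns tryptophan into its oxime, rose by 2.99 ± 0.50, the sulfotransferase gene SOT16 by 2.39 ± 0.40, the glucosyltransferase gene UGT74B1 by 2.12 ± 0.46 and CYP83B1 by 1.70 ± 0.32. The tryptophan genes ASB1 and TRP1 rose by 1.32 ± 0.33 and 1.09 ± 0.30. Tested members that were not called included CYP79B3, SUR1, PEN2, PEN3 and the tryptophan genes ASA1, AT2G04400 (IGPS), TSA1 and TSB1. The regulators MYB51 and MYB122 did not pass the filter. MYB34 went from 28.3, 29.8, 22.7 and 22.6 CPM to 8.71 and 7.59 CPM (-1.65 ± 0.41; edgeR adjusted p = 0.0308). Without the mock uncut 1 library the adjusted p of MYB34, ASB1 and TRP1 was 0.0536, 0.0662 and 0.0931; ASB1 also lost its call without CNQX uncut 2 (0.0554), and TRP1 without CNQX uncut 1 or 2 (0.0894 and 0.0675).

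Phenylpropanoid synthesis, the route from phenylalanine to lignin monomers and flavonoids, was added as a list after its genes had been seen among those called. Of 21 genes 18 passed the filter, 9 rose and 0 fell, and 0 were called without either one of the stumps. PAL2, an entry enzyme, had 19.4, 12.5, 11.7 and 13.9 CPM in uncut tips and 97.6 and 43.6 CPM in stumps (log2 rise 2.21 ± 0.37; edgeR adjusted p = 0.00489). PAL1 rose by 2.77 ± 0.37 to 356 and 160 CPM, the ligase genes 4CL5 and 4CL3 by 3.01 ± 0.68 and 2.36 ± 0.41, the hydroxylase gene CYP98A3 by 2.0 ± 0.38, and the methyltransferase gene CCoAOMT1 by 1.68 ± 0.29. In PAL1, PAL2 and 4CL3 the mock stump was more than 2 times the CNQX stump, the reverse of RBOHD and MPK3. ADT5 and PD1 (ADT3), arogenate dehydratases that supply phenylalanine, rose by 1.96 ± 0.34 and 1.77 ± 0.40.

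Genes of detoxification and redox repair rose. Of 20 tau glutathione transferase genes 16 passed the filter, 6 rose and 0 fell, with 3 called without either one of the stumps. GSTU5 had 2.36, 2.16, 9.10 and 1.92 CPM in uncut tips and 213 and 281 CPM in stumps (log2 rise 6.12 ± 0.46; edgeR adjusted p = 4.30e-05). GSTU6, its neighbour, rose by 3.93 ± 0.40, GSTU11 by 4.29 ± 0.74, ERD9 (GSTU17) by 3.81 ± 0.80, GSTU4 by 3.48 ± 0.80 and GSTU26 by 3.29 ± 0.36. ATGSTF13, of the phi class, fell by 4.42 ± 0.66. Methionine sulfoxide reductases, which repair oxidised methionine, were looked at after their values were seen. Of 11 tested, 5 rose (against 4.33% of all genes) and 0 fell. MSRB8 had 0.295, 0.432, 1.3 and 1.44 CPM and then 43.6 and 55.1 CPM (5.90 ± 0.51; edgeR adjusted p = 7.91e-05), and MSRB6, MSRB7, MSRB9 and PMSR2 rose by 4.97, 3.07, 2.07 and 1.83. MSRB7, MSRB8 and MSRB9 are neighbours on chromosome 4, and MSRB2, MSRB3 and MSRB5 were between -0.41 and 0.03 and not called.

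The genes left by the naming rule among the highest were AT2G36650, a CHUP1-like gene, at 0 to 0.884 CPM and then 69.1 and 50.3 CPM (log2 rise 7.13 ± 0.59); AT5G02230, a haloacid dehalogenase-like hydrolase gene, at 0 to 2.88 CPM and then 153 and 196 CPM (6.86 ± 0.59); BCB, a blue copper-binding protein gene, by 5.83 ± 0.61; GRX480, a glutaredoxin gene that links salicylic acid and jasmonate, by 4.89 ± 0.54; and MC7, a metacaspase gene, by 4.79 ± 0.53. GRX480 stood at 23.2 CPM in the mock stump and 109 CPM in the CNQX stump.

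Other hormone pathways showed few calls. ACS6, an ethylene synthesis enzyme under MAP kinase control, rose by 3.09 ± 0.54 (1.77 to 2.59 CPM, then 13.4 and 23.6 CPM; edgeR adjusted p = 0.00654). IAA2 was the 1 auxin response gene of 7 tested that rose (1.79 ± 0.40), and the 6 tested type-A cytokinin response regulators lay between -1.44 and 0.66 without passing. LBD16, LBD29 and LBD33, auxin-induced genes of root formation, had 0 counts. Of 10 tested cold, drought and abscisic acid genes, 3 rose, among them LTI30 by 2.66 ± 0.52 and ERD10 by 1.93 ± 0.47, and CBF1, DREB1A and NCED3 had 0 counts in all 6 libraries. Of the 13 tested clock genes only BOA rose, by 2.08 ± 0.43, against 4.33% of all genes called up. The 3 tested hypoxia genes lay between -1.44 and 1.17 without passing. HSFA2 fell by 3.08 ± 0.79 from 46.5, 13.0, 61.1 and 13.4 CPM, where the uncut libraries numbered 1 stood highest, to 5.23 and 2.80 CPM; HSP101 fell by 1.66 ± 0.45. Limma-voom did not call HSFA2 and HSP101 (adjusted p = 0.133 and 0.0642), and HSP101 had 0.0709 and 0.0756 without the mock and the CNQX uncut 1 library.

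Of 33 tested expansin and xyloglucan enzyme genes, a group put together after the values were seen, 8 rose (24.2%, against 4.33% of all genes) and 1 fell, and of 71 pectin enzyme genes 8 rose (11.3%) and 3 fell. XTR6 (XTH23), a touch-responsive xyloglucan enzyme, rose from 2 to 57 counts (ratio 63.0, exact interval 16.6 to 532), and XTH18 and XTH19 were at 2.70 and 1.81 on the log2 scale without passing, since XTH18 was at 2.06, 47.5, 3.90 and 47.5 CPM in the uncut libraries. Among expansins, EXLA1 and EXLA2 rose by 2.96 and 2.85, and EXPA15 fell by 2.55.

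**Figure D4:**
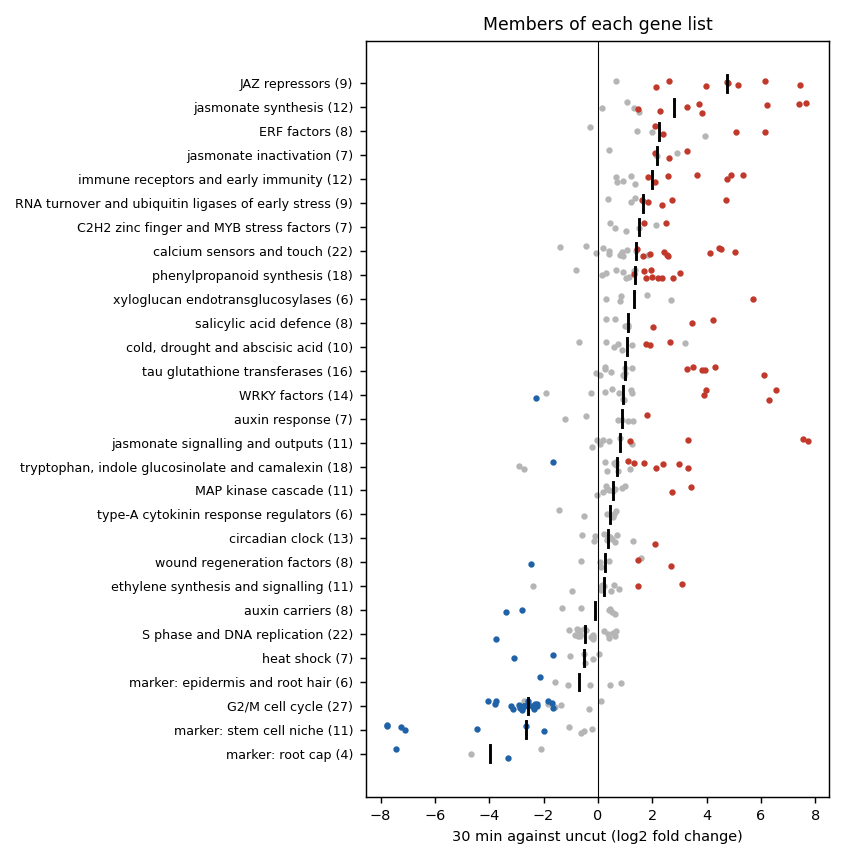
Fitted log2 fold change of each tested member of 29 gene lists with at least 4 tested members, stumps at 30 min against uncut tips; red and blue points are members called up and down, grey points not called, black bars the list medians, and the number tested stands in brackets. JAZ and jasmonate synthesis genes lie highest with medians of 4.73 and 2.79, and G2/M, niche and root cap genes lowest with -2.56, -2.65 and -3.99.

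Genes of mitosis fell together, while changes of DNA replication genes were mostly smaller and did not pass the test. All 27 G2/M genes passed the filter, 21 fell and 0 rose, with a median log2 fold change of -2.56, against 3.73% of all genes called down. HIK, a kinesin needed for growth of the cell plate, had 69.2, 73.9, 68.9 and 65.3 CPM in uncut tips and 13.4 and 14.4 CPM in stumps (-2.31 ± 0.36; edgeR adjusted p = 0.00350). PLE, the microtubule bundler of the phragmoplast whose upstream sequence is shown above, had 33.9, 37.6, 26.0 and 26.9 CPM and then 4.65 and 4.4 CPM (-2.74 ± 0.45; edgeR adjusted p = 0.00435). CYCB2;4, a mitotic cyclin gene, had 26.2, 22.9, 27.3 and 19.2 CPM and then 2.9 and 0.799 CPM (-3.77 ± 0.60; edgeR adjusted p = 0.00377). For each of them the groups lay well apart. CDC20.2, which starts anaphase, fell by 4.04 ± 0.65, the cytokinesis syntaxin gene SYP111 (KNOLLE) by 3.19 ± 0.61, CDKB1;2 by 3.11 ± 0.65 and CYCB1;1 by 2.59 ± 0.52, while CYCA2;3 was at 0.10 and CDKB1;1 at -0.32. In the fit of all 12 libraries 8 of the 27 were called (HIK, CYCB2;4, SYP111 and CDKB1;2 were not), without the mock or the CNQX stump 0 and 1, and by limma-voom 13. The motif AACGG stood upstream of 15 of the 27 genes, against 22.9% of all genes. It also stood upstream of 5 of 9 tested JAZ repressor genes and 3 of 12 tested jasmonate synthesis genes, lists that rose. A link of the motif to the fall was not tested.

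Of 22 replication genes, all tested, 1 fell: CDT1B, a licensing factor, by 3.77 ± 0.67, from 7.77 to 25.9 CPM to 0.581 and 1.6 CPM. The list median was -0.47, and the helicase genes MCM2 to MCM6 and PRL (MCM7) lay between -0.86 and -0.67 without passing. Of the 22 genes 16 had a negative change and 6 a positive one. For 7 of them both stumps lay below every uncut library, against 18.6% of all genes. The smallest change called among all genes was 1 on the log2 scale, larger than those of the helicase genes. The simulated counts had fewer changed genes than were called here, so they do not give the share of such falls that went uncalled. Of 26 tested genes with kinesin in their product name, 10 fell and 0 rose (4 in the fit of all 12 libraries, 0 without either one of the stumps), ATK1 by 2.80 ± 0.54 and ATK5 by 2.54 ± 0.43 among them. Other genes of the naming rule that fell were PS1, known from male meiosis, by 3.39 ± 0.53; CSLD5, a wall synthase of dividing cells, by 3.48 ± 0.61; AT1G63100, a GRAS factor gene, by 3.87 ± 0.47 (59.1 to 77.8 CPM, then 2.32 and 6.39 CPM); and AT4G14330, AT3G03130, AT1G07400, ENODL14 and AT3G19430, by 3.54, 4.01, 3.42, 4.08 and 5.07. AT2G03505, a carbohydrate-binding X8 domain gene, fell from 212 counts to 1, a ratio of 96.0 (exact interval 17.0 to 3810; limma-voom adjusted p = 0.0524). AT1G07400, an HSP20-like gene, was not called by limma-voom (adjusted p = 0.208) or without CNQX uncut 1 (edgeR adjusted p = 0.0645). Meristem position moves with these genes: the niche and root cap sums given above were lower in both stumps than in any uncut library, and their part in the mitotic result was not tested.

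Nucleolar genes that build ribosomes fell as a group, which was looked at after their values were seen. Of 51 tested genes with product names of nucleolar proteins or ribosomal RNA processing, 24 fell (47.1%, against 3.73% of all genes) and 1 rose, with a median log2 fold change of -1.58. NAP57, the pseudouridine synthase of the H/ACA particle, had 1580, 1920, 1380 and 1250 CPM in uncut tips and 209 and 268 CPM in stumps (-2.66 ± 0.33; edgeR adjusted p = 0.000924). FIB2, a fibrillarin that methylates ribosomal RNA, had 630, 555, 766 and 449 CPM and then 97.6 and 90.3 CPM (-2.67 ± 0.35; edgeR adjusted p = 0.00126). NUC-L1, a nucleolin, had 925, 986, 828 and 662 CPM and then 126 and 162 CPM (-2.54 ± 0.33; edgeR adjusted p = 0.00126). The lowest uncut library was more than 2 times the highest stump in all 3 genes. NAF1, NOP56, PUM24, PWP2 and FIB1 fell by 2.83, 2.43, 2.36, 2.12 and 1.89, the pescadillo-like gene AT5G14520 by 2.09, and the U3 ribonucleoprotein gene AT5G66540 by 1.81. Of 277 tested genes matched by ribosomal words in their product name, those naming an organelle left out, 12 fell and 0 rose, with a median of -0.78. The share that fell was 4.33%, close to the 3.73% of all genes. The match by words is not limited to ribosomal proteins, and DIM1A was among the fallen. In the fit of all 12 libraries 18 of the 51 nucleolar genes fell, and without the mock or the CNQX stump 0 and 2, with medians of -1.53 and -1.66.

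Genes of the stem cell niche fell, and with them single genes of auxin transport and of auxin and cytokinin response. Of 15 niche markers 11 passed the filter, 7 fell and 0 rose (3 fell in the fit of all 12 libraries, 0 without either one of the stumps). RGF4, a root meristem growth peptide gene, went from 96 counts to 0, at least 14.5-fold lower, and the PLETHORA-type genes PLT1 and BBM from 90 and 65 counts to 0, at least 13.6-fold and 9.81-fold lower. AIL6 (PLT3) had 50.1, 53.1, 47.4 and 109 CPM and then 5.23 and 16.8 CPM (log2 change -2.65 ± 0.48; edgeR adjusted p = 0.00768). SHR and SCR, which pattern the ground tissue, did not pass, with SCR at 53.9 to 101 CPM and then 75.5 and 42.4 CPM. MP, the auxin response factor of vascular and root initiation, had 22.1, 33.3, 16.2 and 20.6 CPM and then 2.32 and 0.799 CPM (-3.92 ± 0.59; edgeR adjusted p = 0.00297). Among auxin carriers, a list added after the values were seen, LAX2 fell by 3.37 ± 0.56, and AUX1 and EIR1 (PIN2) were at 0.45 and -0.61. Genes annotated as cytokinin response factors are outside the lists and were looked at after their values were seen. All 3 tested fell: CRF3 from 42.4, 73.9, 60.4 and 51.9 CPM to 4.07 and 7.99 CPM (-3.22 ± 0.47; edgeR adjusted p = 0.00268), CRF2 by 2.64 and CRF4 by 2.28. Of 6 tested epidermis and root hair markers only MYB66 (WER), an epidermal fate gene, was called, with a fall of 2.15 ± 0.50. Of the 6, 2 had a positive change. The 2 tested xylem and 2 tested phloem markers were not called.

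Risen genes had fewer exons. Among protein-coding genes the median number of exons was 3 for 633 risen genes, 6 for 548 fallen genes and 5 for all 14370 tested, and 19.6%, 11.9% and 11.9% had a single exon. Median annotated transcript lengths were 1721, 1922.5 and 1831 bases. Of risen genes 13.6% had a risen gene as an immediate neighbour, where 4.97% of all tested genes did, and of fallen genes 10% had a fallen neighbour, where 4.38% of all did. Pairs such as FAMT with AT3G44870 and CML38 with AT1G76640 are of 1 family, and the strand setting of the counting is not given in the sources used here, so reads shared by overlapping neighbours cannot be told apart.

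The effect of excision was read in mock and in CNQX with 1 stump library each. Of the 14993 genes, 0 differed between the drugs in their change from uncut to 30 min by edgeR's interaction test (adjusted p under 0.05), 113 had an unadjusted p under 0.05, and limma-voom and DESeq2 also called 0 (68 and 53 unadjusted). That test had 2 residual degrees of freedom, all from the uncut pairs. The mock and CNQX log2 rises were 6.32 and 5.98 for JAZ10, 3.87 and 3.78 for AOS, 3.57 and 3.83 for OPCL1 and 4.23 and 4.24 for NPR3; the falls were -2.42 and -2.22 for HIK and -2.6 and -2.75 for FIB2. Values for RBOHD were 4.37 and 5.36, and for PAL1 3.09 and 2.41. Wider apart was the fall of AT1G36060, at -1.49 in mock and -3.72 in CNQX (edgeR interaction, unadjusted p = 0.0250). TAT3 and FAMT had unadjusted interaction p of 0.0143 and 0.0343 by edgeR, but their mock uncut libraries held 1 and 0 counts in all, so that their fitted mock rises are no bound; 13 counts in the CNQX uncut 2 library were all or most of their CNQX uncut counts. The length of exposure to CNQX differed between cut and uncut seedlings.

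Later stumps of the same study, 1 library per drug and time, are given as levels beside the 30 min values, with no test. LOX4, at 66.6 and 85.0 CPM in mock and CNQX at 30 min on the scaling of all 12 libraries, was at 0 and 0.455 CPM at 4 h and at 0 in all 4 later libraries. JAZ10 went from 128 and 160 CPM to 1.54 and 1.37 CPM at 4 h, and CNGC19 from 128 and 91.7 CPM to 2.06 and 4.55 CPM. MSRB8 stood at 42.7 and 54.1 CPM and then at 2.57 and 2.28 CPM. At 4 h these 4 genes were below 5 CPM in both libraries, near their uncut levels. RAP2.6 differed, with 30.7 and 54.9 CPM at 30 min, 4.11 and 19.1 CPM at 4 h, 68.9 and 31.9 CPM at 14 h and 46.2 and 49.1 CPM at 24 h, all above its uncut libraries. GSTU5 was at 208 and 276 CPM at 30 min and between 23.6 and 95.8 CPM later. FIB2 was at 95.7 and 88.6 CPM at 30 min, 253 and 112 CPM at 4 h and 37.2 and 337 CPM at 24 h, against 439 to 750 CPM uncut. HIK stood at 13.1 and 14.1 CPM at 30 min and 4.11 and 1.82 CPM at 4 h, at 28.8 and 21.9 CPM at 14 h, and at 4.17 and 52.4 CPM at 24 h, against 63.9 to 72.8 CPM uncut. The mock library of 24 h stood apart in its ribosomal RNA share (1.75% of counts).

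**Figure D5:**
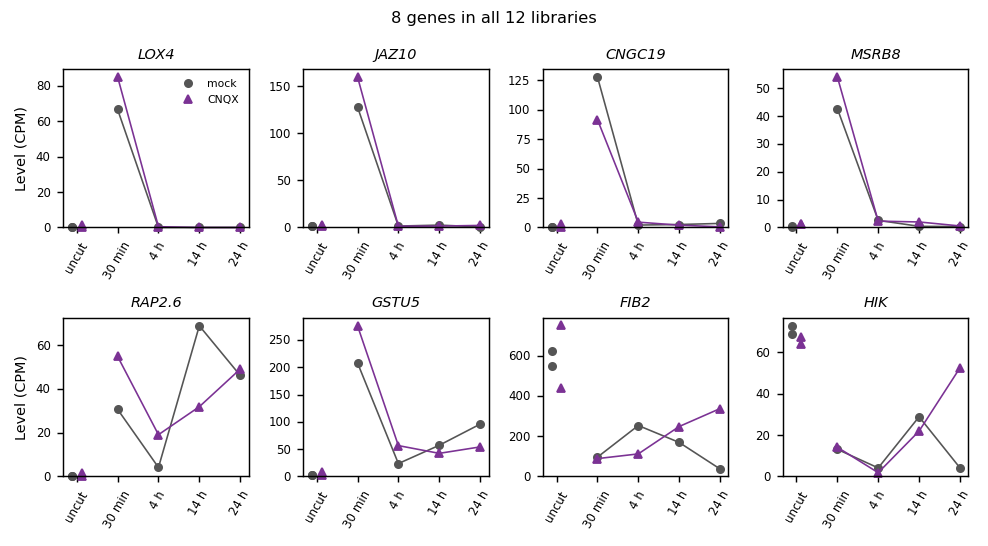
Level of 8 genes (CPM, linear axes from 0) in all 12 libraries, with uncut tips at the left and stumps from 30 min to 24 h; grey circles are mock, purple triangles CNQX, and lines join the single libraries of each drug. LOX4, JAZ10, CNGC19 and MSRB8 are high at 30 min only, RAP2.6 and GSTU5 stay above the uncut level, and FIB2 and HIK stay below it in each stump library.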

How the data were processed

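RNA from root tissue was amplified and sequenced, per the labels' protocols. The authors deposited raw counts per locus, with no normalization, as a joint table and a file per library, which agreed at all 32833 loci; per the submitters' processing notes the tools were HISAT2 and DESeq2 and the build TAIR10. Versions, the counter and strand setting: not given in the sources used here. Names came from RefSeq's TAIR10.1 annotation (32548 loci matched). The 6 libraries were modelled by edgeR 4.0.16 (R 4.3.3): filterByExpr (minimum count 10), TMM, drug plus stage (3 residual degrees of freedom), quasi-likelihood F tests, Benjamini-Hochberg over 14993 genes, threshold 0.05. Standard errors (±) were the absolute log2 change divided by the root of F. Of counts simulated from these libraries with 200 changed genes, 2% of 2-fold, 54% of 4-fold and 94% of 16-fold changes were recovered.

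Named genes passed the test, averaged 4 or more in log2 CPM and had groups that did not overlap (16 highest, 12 lowest), plus up to 4 members per list by lowest p; further list members that were called are named with them. Members and lists were chosen with earlier results of these data known, and no set test was run. With 0 counts in a group, folds are bounds against 3 counts over the group; with 1 to 3, ratios have 95% exact intervals, which cover counting error only. Alternatives were DESeq2 1.42.0, limma-voom 3.58.1, other scalings, filters and designs, and leaving out each library.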

Additional observations from a re-analysis of the deposited data

How the results depend on the processing

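The counts of 649 risen and 559 fallen genes kept within 1.5 times under DESeq2 and its size factors, limma-voom, a minimum count of 30, leaving out organelle and ribosomal RNA loci, dropping the drug term, and leaving out any uncut library. Without a filter on low counts 1029 rose and 1017 fell (2046 in all), as more genes were tested. The fit of all 12 libraries called 745, of which 201 fell. Leaving out 1 library gave 36 to 640 risen, 5 to 653 fallen and 43 to 1242 called genes, the lowest without a stump library, when 1 library stands for the group and its spread is taken from the uncut ones. Uncut replicates of the same number deviated together (correlation over genes 0.371), but stumps have only number 1 and the labels do not tie numbers to a shared source. With a replicate block 1551 rose and 1502 fell (3053 in all). No called gene changed sign under any of these. Of 228 named or listed genes, called or not, 221 kept their side of the threshold with DESeq2, 212 with limma-voom, 187 of 227 with all 12 libraries, and 80 of 227 and 72 of 225 without the mock or the CNQX stump. Depth limits low genes: 3 counts stand for 0.908 to 1.90 CPM.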
